A study of Mus musculus with 3 samples.

Results

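The 10 genes described here make, load or regulate the classical class I molecules of the mouse major histocompatibility complex (MHC), and they were taken by symbol from the 32285 genes of each library. They were the heavy chains H2-K1 and H2-D1, the nonclassical heavy chain H2-T23, the light chain B2m, the transport and loading genes Tap1, Tap2 and Tapbp, the regulator Nlrc5 and the immunoproteasome subunits Psmb8 and Psmb9. All 10 were found in the 3 libraries. Peripheral blood mononuclear cells (PBMCs) came from C57BL/6 mice, all female by the methods: young mice of 8 weeks, aged mice of 16 months, and aged-GA mice of 16 months treated with GA for 1 month. GA is glycyrrhizic acid, a licorice saponin that was injected into the tail vein on alternate days; the methods give PBS to controls, whereas the labels give no treatment to young and aged mice. Each group had 1 droplet-based library. The study gives several mice per group as the source of the cells and does not say how they were combined into a library, so animals and libraries cannot be told apart. Young mice were bought and aged mice were reared in the laboratory, so origin and age cannot be told apart either.

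Class I molecules show peptides from inside the cell to CD8 T cells, and nearly all nucleated cells carry them. Proteasomes cut cytosolic proteins, the TAP transporter carries the peptides into the endoplasmic reticulum, and tapasin holds the empty heavy chain and B2m beside TAP until a peptide fits. Interferons raise many genes of the pathway through IRF1 and other factors, and NLRC5 acts on class I promoters as the counterpart of CIITA for class II. In white blood cells the subunits Psmb8 and Psmb9 replace catalytic subunits of the standard proteasome, whereas mature mouse red cells carry little class I.

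By the annotation of GRCm38, 8 of the 10 genes lie on chromosome 17, where the mouse MHC is. H2-K1 is at chr17:33996017-34000347 on the minus strand and H2-D1 at chr17:35262730-35267499 on the plus strand. H2-T23 lies at chr17:36029773-36032855 and Tapbp at chr17:33915899-33929292. Psmb9 (chr17:34181987-34187764), Tap1 (chr17:34187553-34197225), Psmb8 (chr17:34197721-34201454) and Tap2 (chr17:34203527-34216321) follow each other in that order. Tap1 and Psmb9 are read in opposite directions. By RefSeq, from which the promoters came, their start sites are 226 bases apart, so their promoter windows overlap over 275 bases. By the gene spans given here, Psmb9 instead reaches past the start of Tap1, so the genes themselves overlap. B2m is at chr2:122147686-122153083 and Nlrc5 at chr8:94434356-94527272.

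The promoters are shown because the members' levels are compared below with interferon genes. H2-K1 and H2-D1, which differ between cell types, share the element shown. The 30 bases below are from RefSeq on GRCm38.p6, written 5′ to 3′ on the strand of the gene, with matches to kappa B letters (GGGA and CC with 4 bases of any kind between) and to interferon response letters (GAAA and GAAA with 2 bases between, or the short form GAANNGAAA) in capitals. Both strands were searched, and the kappa B letters match on both at overlapping places, 1 base apart. They lie at chr17:34000429-34000458, chr17:35262923-35262952, chr2:122147548-122147577 and chr17:36032806-36032835 in the order given. All 4 lie before the RefSeq start of the gene. By the gene spans given above, those of H2-K1 and B2m lie before the gene, but those of H2-D1 and H2-T23 lie inside it. What a window holds thus depends on the start used.
H2-K1: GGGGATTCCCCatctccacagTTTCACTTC
H2-D1: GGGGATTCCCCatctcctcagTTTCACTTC
B2m: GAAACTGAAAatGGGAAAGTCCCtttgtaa
H2-T23: atcctactgcTTTCTCTTTCataaagacac
The H2-K1 and H2-D1 elements were identical at 29 of 30 bases, and at 107 of 120 bases (89.2%) in the stretch around them. Over their whole aligned windows of 300 bases, 214 of 361 columns (59.3%) were identical. The 361 columns include gaps, which count as not identical. The element lies farther from the RefSeq start in H2-D1 than in H2-K1, so the windows are offset and gaps lower this share. The share among paired bases was not computed, so 59.3% does not show that the promoters differ outside the element. Counted in the same way, with gaps, the shares with H2-T23 were 45.4% for H2-K1 and 49.4% for H2-D1. B2m held both kinds of letters in the opposite order, and H2-T23 held the interferon response letters without the kappa B letters in its window. Of 32851 mouse promoters of the same length, 3.44% held the full interferon response letters, 7.52% the short form and 20.7% the kappa B letters. The letters TTCNNNGAA of a gamma-activated site, present in 8.30% of promoters, were found among members in Psmb8 alone. TGACG (20.8% of promoters) was found in H2-K1, H2-D1, B2m, Tap1 and Psmb9, and CCAAT (37.4%) in all members with an entry except Psmb8. For Tap1 and Psmb9, whose windows overlap, the matches to each of these are the same bases read on opposite strands. A promoter entry was given for 8 of the 10 members, all but Tap2 and Nlrc5. Since class I genes are close copies, the last 500 bases of each transcript, where this 3′ chemistry reads, were cut into 426 windows of 75 bases: in 9 members no window matched another gene exactly, whereas in H2-T23 85 windows did, so its counts are less certain.

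The libraries differed in ways that touch every comparison of age. The young, aged and aged-GA libraries held 58894294, 82260961 and 98155671 UMIs (unique molecular identifiers, each a captured RNA molecule) in 10842, 16038 and 17332 barcodes, and 8851, 10238 and 12648 cells passed the filters of the methods, of which 27 (young and aged), 24 (young and aged-GA) and 34 (aged and aged-GA) shared a barcode. A cell was placed in a gate when it had UMIs of at least 2 markers of 1 blood lineage and at most 1 marker of any other list. Cells with markers of several lineages were left out, and made up 8.85%, 27.1% and 25.9% of the young, aged and aged-GA libraries. The gates held 2233, 3825 and 4943 B cells, 1003, 497 and 619 CD4 T cells, 1909, 738 and 1309 CD8 T cells and 309, 223 and 217 natural killer (NK) cells. Although PBMC preparations remove most of them, erythroid cells (340, 185 and 853) and neutrophils (12, 696 and 389) were present. In unsupervised clusters most young B cells lay in a different cluster (1769 young and 31 aged cells) from most aged B cells (271 young and 3230 aged cells). RNA of other cells was also higher in aged B cells, where haemoglobin took 0.12%, 1.51% and 0.88% of UMIs. The 10 neutrophil markers summed to 2.37, 48.8 and 33.9 CPM (summed UMIs brought to a standard total in every gate and library) with 6, 10 and 10 detected. The 9 monocyte markers summed to 8.04, 30.7 and 16.8 CPM with 5, 9 and 9 detected. In CD4 T, CD8 T and NK cells the marker sums of other lineages were higher in the aged libraries too, with 1 exception. Monocyte markers in NK cells summed to 123, 107 and 116 CPM. The part of such RNA in the differences below was not tested. No test can be made with 1 library per group, so intervals are exact, at 95%, and cover counting error only.

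**Figure D1:**
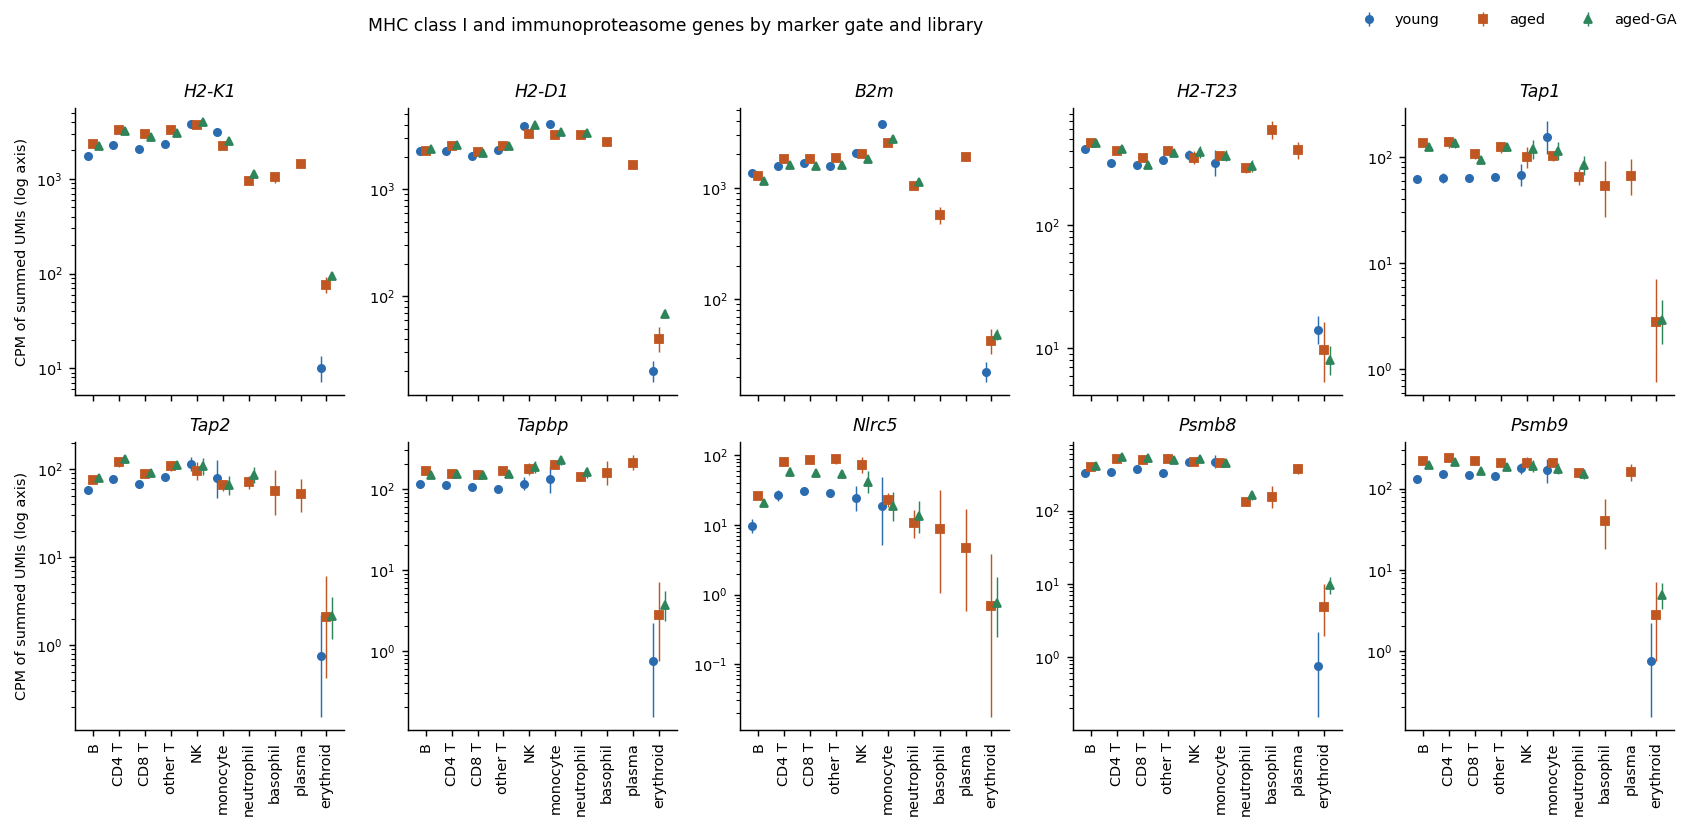
Level of each member (CPM, log axis) in each cell gate, with 1 point per library of at least 20 cells and vertical bars for the 95% counting interval. Heavy chains and B2m lie far above Nlrc5 in every leukocyte gate, all members lie lowest in erythroid cells, and values of 0 UMIs are not drawn.

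NK cells had the highest CPM of H2-K1. This heavy chain stood at 3795, 3711 and 3956 CPM in young, aged and aged-GA NK cells, at 2258, 3252 and 3170 CPM in CD4 T cells, at 2075, 2982 and 2779 CPM in CD8 T cells and at 1759, 2324 and 2241 CPM in B cells. The 3 NK values lay above every value of the next gate, so that step in CPM is larger than the spread over libraries. The T gates overlapped each other. CPM depends on what else a cell holds. Ribosomal protein genes took 18.9%, 18.8% and 16.9% of UMIs in NK cells and 39.4%, 30.9% and 31.2% in CD4 T cells. Whether the order holds without those genes was not tested. Neutrophils held 961 CPM in the aged and 1126 CPM in the aged-GA library, below every B value, and the 96 aged basophils 1041 CPM. The young library had too few neutrophils for a value.

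H2-D1, the other classical heavy chain, was ordered differently. NK cells held 3935, 3297 and 3952 CPM, monocytes 4071, 3189 and 3426 CPM, and neutrophils 3186 and 3359 CPM in the aged libraries. These 3 gates overlapped and lay above all the others, with CD8 T cells at 2059, 2237 and 2185 CPM and B cells at 2299, 2270 and 2357 CPM. Within the monocyte gate this did not hold for classical monocytes, at 2306 and 2561 CPM in the aged and aged-GA libraries. They lay near CD4 T cells at 2534 and 2594 CPM, whereas nonclassical monocytes held 4032 and 3885 CPM there. By CPM, among leukocyte gates with values in at least 2 libraries, neutrophils were thus lowest for H2-K1 and among the highest for H2-D1. Ribosomal protein genes took 3.63% and 3.78% of neutrophil UMIs in the aged and aged-GA libraries, against 37.2% and 38.7% in CD8 T cells. This lowers CD8 T values relative to neutrophil values, and the order for H2-D1 without those genes was not tested.

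The light chain B2m was highest in the monocyte gate, at 3731, 2516 and 2773 CPM, with no overlap with NK cells at 2064, 2004 and 1807 CPM. This held for nonclassical monocytes, at 3818, 3295 and 3242 CPM. Classical monocytes, at 1687 and 1830 CPM in the aged and aged-GA libraries, lay in the range of NK and CD8 T cells. Among leukocyte gates with values in at least 2 libraries, B cells (1349, 1288 and 1165 CPM) and neutrophils (1050 and 1136 CPM) were lowest. H2-T23, which encodes Qa-1, the ligand of the NKG2A receptor, was at 419, 462 and 468 CPM in B cells and at 290 and 302 CPM in neutrophils. In the aged basophils, which gave a value in that library alone, H2-T23 was at 595 CPM and B2m at 573 CPM, from 135 and 130 UMIs.

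Transport and loading genes were near 100 CPM in most gates, and for Tap1, Tap2 and Tapbp no neighbouring leukocyte gates in the order of levels were apart by more than the spread over libraries. Erythroid cells lay far below, at 0 to 3.65 CPM. Tap1, a subunit of the transporter, stood at 62.2, 136 and 124 CPM in B cells and at 63.9, 137 and 135 CPM in CD4 T cells. In monocytes it ran the other way, at 156, 103 and 115 CPM. Tap2, its partner, stood at 58.3, 75.2 and 78.9 CPM in B cells and at 115, 96.7 and 110 CPM in NK cells. Tapbp, which encodes tapasin, stood at 132, 199 and 224 CPM in monocytes and at 210 CPM in the 26 aged plasma cells.

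Of the immunoproteasome subunits, Psmb8 set neutrophils apart from B, T and NK cells and monocytes. It stood at 455, 464 and 512 CPM in NK cells, at 374, 493 and 528 CPM in CD8 T cells and at 329, 399 and 409 CPM in B cells, but at 130 and 163 CPM in neutrophils, with no overlap. Psmb9 showed no such step, with 157 and 152 CPM in neutrophils against 134, 218 and 193 CPM in B cells.

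Nlrc5 was the scarcest member of the leukocyte gates. The CD8 T, CD4 T and NK gates held 30.7, 86.5 and 56.2 CPM, 26.7, 81.6 and 58.1 CPM, and 24.4, 73.5 and 42.2 CPM, all above the highest monocyte value. Monocytes (18.9, 23.1 and 18.9 CPM), B cells (9.70, 26.5 and 20.7 CPM) and neutrophils (10.6 and 13.5 CPM) were lower on average, though aged B cells overlapped young NK cells. These are small counts: young B cells gave 82 Nlrc5 UMIs and young NK cells 25.

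Erythroid cells served as the type that should carry little of these RNAs. After each cell was thinned to 500 UMIs, H2-K1 was seen in 57.4%, 68.1% and 66.1% of B cells and in 0.588%, 3.24% and 5.63% of erythroid cells. Without thinning the shares were 98.9%, 99.6% and 99.8% against 10.6%, 42.7% and 50.2%, at a median of 3383, 3047 and 3725 UMIs per B cell and 11744.5, 7548 and 7472 per erythroid cell. Erythroid H2-K1 was higher in both aged libraries (9.97, 76.3 and 95.1 CPM), at levels far below those of B cells. Haemoglobin took 93.1%, 93.5% and 93.1% of erythroid UMIs, which lowers the CPM and the thinned share of every other gene there. Nlrc5 was seen in 1.41%, 2.44% and 3.28% of thinned CD8 T cells and in 15.9%, 38.1% and 31.9% of the same cells with all UMIs. In erythroid cells it was seen in 0 of 340, 0 of 185 and 0 of 853 thinned cells, which allows shares of up to 0.882%, 1.62% and 0.352% at that depth. With all UMIs the erythroid shares were 0%, 0.541% and 0.586%.

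**Figure D2:**
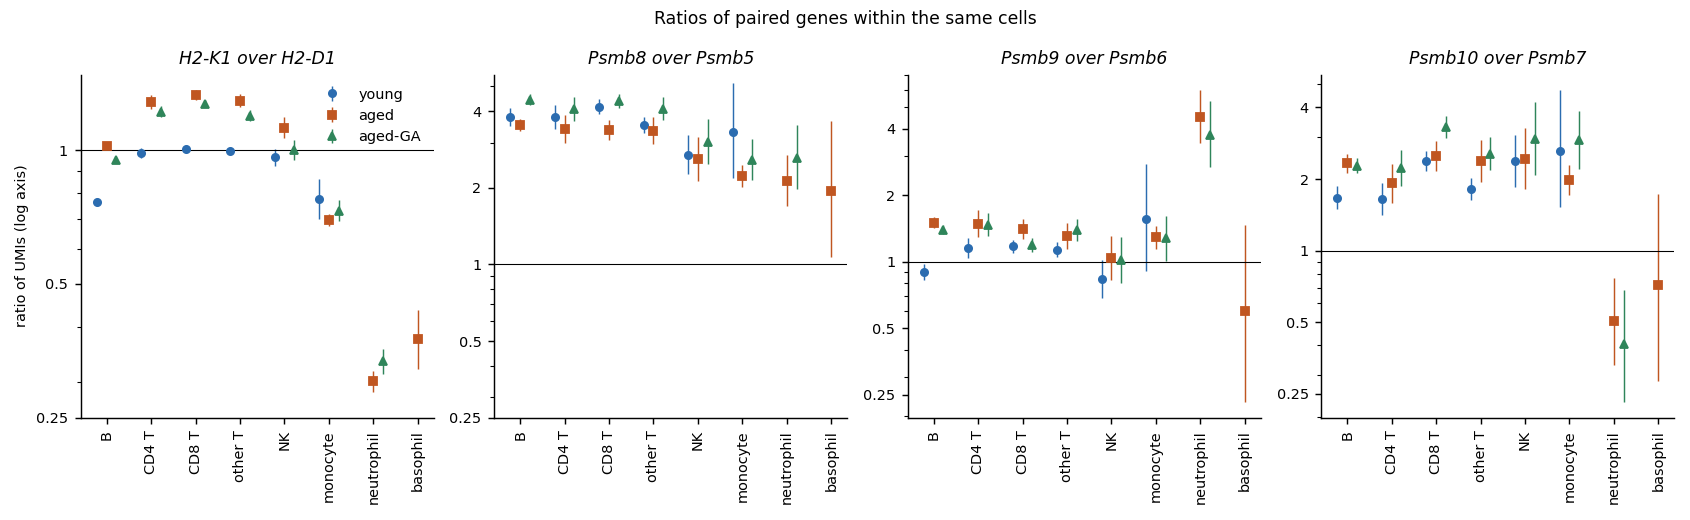
Ratio of the UMIs of 2 genes of the pathway within the same cells, by gate and library, on a log axis with 95% counting intervals. Neutrophils lie lowest for H2-K1 over H2-D1 and for Psmb10 over Psmb7, and highest for Psmb9 over Psmb6.

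Ratios of 2 genes within the same cells need no scaling for depth, and each UMI counts 1 captured molecule. Whether capture by transcript length differs between the libraries was not tested. H2-K1 over H2-D1 was 0.765 (0.749 to 0.782), 1.02 (1.01 to 1.04) and 0.951 (0.939 to 0.963) in young, aged and aged-GA B cells, and 1.01, 1.33 and 1.27 in CD8 T cells. In neutrophils it was 0.302 (0.286 to 0.318) and 0.335 (0.314 to 0.358), and in aged basophils 0.375 (0.322 to 0.436). The pair thus shifted toward H2-K1 in aged B and T cells and leaned toward H2-D1 in granulocytes, by more than counting error in each case. In monocytes it was 0.777 (0.702 to 0.861), 0.697 (0.676 to 0.719) and 0.731 (0.693 to 0.771), where the intervals overlapped.

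Exchange of catalytic subunits was read as the ratio of each inducible subunit to the standard subunit it replaces. Psmb9 over Psmb6 was 0.897 (0.827 to 0.973), 1.5 (1.42 to 1.59) and 1.39 (1.33 to 1.46) in B cells, and 1.17, 1.41 and 1.19 in CD8 T cells. Psmb8 over Psmb5 was 3.79 (3.49 to 4.12), 3.53 (3.33 to 3.74) and 4.44 (4.22 to 4.66) in B cells and 4.17, 3.37 and 4.37 in CD8 T cells. The aged library was lowest in both gates, though in B cells its interval overlapped that of the young library. Psmb10 over Psmb7 was 1.67, 2.33 and 2.28 in B cells. The 3 ratios therefore did not move together between young and aged cells. Within each library neutrophils differed from every lymphocyte gate beyond the counting intervals in the first and the last of these ratios, with Psmb9 over Psmb6 at 4.5 and 3.76 and Psmb10 over Psmb7 at 0.507 and 0.404. Psmb8 over Psmb5 in neutrophils, at 2.13 and 2.62, overlapped NK cells at 2.59 and 3.03.

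Subsets within a gate differed as well. In CD4 T cells, memory cells exceeded naive cells in H2-D1 by 0.43, 0.42 and 0.46 on the log2 scale in young, aged and aged-GA libraries, in H2-K1 by 0.43, 0.41 and 0.37, and in Psmb8 by 0.68, 0.35 and 0.56. The median of all genes was 0.26, 0.24 and 0.24, so part of each value is shared by genes at large. In CD8 T cells H2-D1 differed by 0.08, 0.48 and 0.22 and H2-K1 by 0.08, 0.42 and 0.15. The median of all genes there was 0.11, 0.20 and 0.12, so neither gene exceeded it in the young library. Nonclassical monocytes exceeded classical monocytes in H2-K1 by 1.29 (1.21 to 1.37) in the aged and 1.08 (0.93 to 1.24) in the aged-GA library, in B2m by 0.97 and 0.83 and in H2-D1 by 0.81 and 0.60. H2-T23 and Psmb8 went the other way, at -0.45 and -0.70 and at -0.35 and -0.45. The young library had 47 nonclassical monocytes and 1 classical monocyte, against 366 and 165 in the aged library.

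The first comparison of the design is aged against young blood. Over B, CD4 T, CD8 T and NK cells the 10 members gave 40 ratios of CPM. Of these 10 were at least 1.5-fold higher in the aged library, none was 1.5-fold lower and 29 lay within. The remaining 1, Nlrc5 in NK cells, had fewer than the 100 UMIs required. In B cells 3 of 10 members were higher and 0 lower, where 24.7% of all 8648 genes with enough UMIs were higher and 2.64% lower. In CD4 T cells 4 of 10 were higher and 0 lower, against 30.3% and 3.58% of 5750 genes, and in CD8 T cells 2 of 10 were higher and 0 lower, against 27.3% and 3.1% of 7611 genes. In NK cells 1 of 9 was higher and 0 lower, against 8.93% and 6.12% of 2665 genes. The members' shares were near those of all genes, so the counts say nothing particular about the pathway. The median gene was shifted by 0.28, 0.36 and 0.33 on the log2 scale in B, CD4 T and CD8 T cells and by 0.02 in NK cells, beside medians of 0.38, 0.55, 0.44 and -0.03 over the members. Relative to that shift 5 of the 40 ratios in place of 10 were past 1.5-fold, namely those of Nlrc5 in B, CD4 T and CD8 T cells and Tap1 in B and CD4 T cells, while the genes at large split into 9.59% higher and 7.71% lower in B, 11.8% and 10.7% in CD4 T and 9.95% and 9.16% in CD8 T cells. A denominator without haemoglobin, mitochondrial, ribosomal protein and immunoglobulin genes lowered the shares of all genes called higher in CD4 T and CD8 T cells to 16.5% and 15.1%, with 7.22% and 5.89% called lower.

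**Figure D3:**
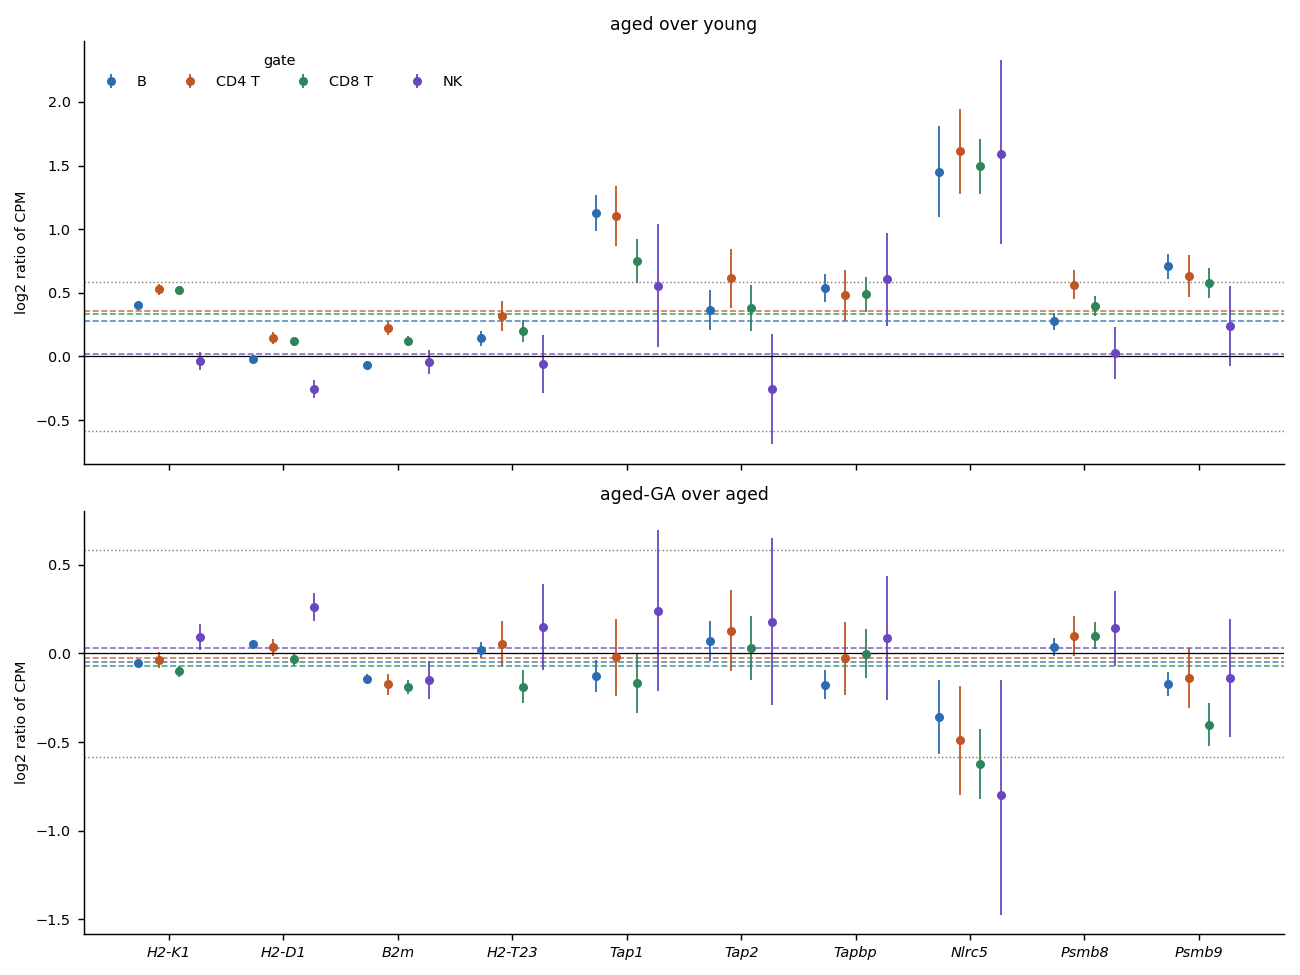
Log2 ratio of each member in B, CD4 T, CD8 T and NK cells, aged over young and aged-GA over aged, with 95% counting intervals. Dashed lines give the median of all genes in each gate and dotted lines the 1.5-fold limits. Nlrc5 lies highest in each gate for aged over young and lowest in each gate for aged-GA over aged.

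Nlrc5, the class I transactivator, showed the largest ratio of the members in all 4 gates. It went from 9.70 to 26.5 CPM in B cells, a log2 ratio of 1.45 (1.10 to 1.81), and from 30.7 to 86.5 CPM in CD8 T cells, a log2 ratio of 1.49 (1.28 to 1.71). In CD4 T cells the log2 ratio was 1.61 (1.28 to 1.95), and in NK cells 1.59 (0.89 to 2.33) from 25 young and 57 aged UMIs, fewer than the 100 required. Among all genes with enough UMIs, 99.0%, 97.8%, 98.1% and 99.5% had a lower ratio in B, CD4 T, CD8 T and NK cells. Within naive and within memory CD8 T cells the log2 ratio was 1.33 (1.03 to 1.62) and 1.94 (1.3 to 2.65), and within naive and memory CD4 T cells it was 1.58 (1.11 to 2.05) and 1.22 (0.38 to 2.17). The difference was thus present in each T subset. Nlrc5 was lower in aged monocytes (23.1 CPM) and aged neutrophils (10.6 CPM) than in the aged T and NK gates. Aged B cells, at 26.5 CPM (23.8 to 29.4), lay above neutrophils but overlapped monocytes (18.0 to 29.1).

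Tap1 came next. It went from 62.2 to 136 CPM in B cells, a log2 ratio of 1.13 (0.98 to 1.27), and from 63.9 to 137 CPM in CD4 T cells, a log2 ratio of 1.10 (0.87 to 1.34). In CD8 T cells the log2 ratio was 0.75 (0.58 to 0.92) and in NK cells 0.56 (0.07 to 1.04). Psmb9, which shares its promoter region with Tap1, stood at 0.71 (0.61 to 0.81), 0.63 (0.47 to 0.80), 0.58 (0.46 to 0.70) and 0.24 (-0.07 to 0.55) in the same order. Tap2 passed 1.5-fold in CD4 T cells alone, at 0.62 (0.38 to 0.85), and Tapbp in NK cells alone, at 0.60 (0.24 to 0.97), neither of which held after the shift of all genes was taken off. Whether these gates differ from the others was not tested. Tap1 over Tap2 was 1.07 (0.94 to 1.21), 1.80 (1.67 to 1.95) and 1.57 (1.48 to 1.68) in young, aged and aged-GA B cells, so the 2 subunits of the transporter did not move alike there.

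The abundant members moved less, as did abundant genes at large. From the lowest to the highest quintile of genes by CPM, the median log2 ratio went from 0.37 to 0.16 in B cells. It went from 0.48 to 0.19 in CD4 T, from 0.44 to 0.19 in CD8 T and from 0.08 to -0.06 in NK cells. The share of genes 1.5-fold higher in B, CD4 T and CD8 T cells was 13.7%, 16.9% and 13.7% in the highest quintile, where most members lay. The part of level in the ratios was not tested. H2-K1 was at 0.40 (0.37 to 0.43), 0.53 (0.48 to 0.57), 0.52 (0.49 to 0.55) and -0.03 (-0.10 to 0.04) in B, CD4 T, CD8 T and NK cells, and Psmb8 at 0.28, 0.57, 0.40 and 0.03. H2-T23 lay between -0.06 and 0.32. H2-D1 was at 0.15 (0.10 to 0.19) and 0.12 (0.08 to 0.15) in CD4 and CD8 T cells but at -0.21 and -0.21 relative to the median gene, and B2m at 0.23 and 0.12 but at -0.13 and -0.21, so for both the direction in T cells depends on the scaling. In B cells H2-D1 was at -0.02 (-0.04 to 0.01) and B2m at -0.07 (-0.10 to -0.03). H2-K1 and H2-D1 thus differed in their ratio, and the part of their promoters in this was not tested. In monocytes B2m was at -0.57, H2-K1 at -0.51 and H2-D1 at -0.35, with Tap1 at -0.60 (-1.12 to -0.03) from 33 young and 317 aged UMIs. Within nonclassical monocytes, which were nearly all of the young gate, B2m was at -0.21, H2-K1 at -0.08, H2-D1 at -0.05 and Tap1 at -0.76 (-1.32 to -0.16).

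**Figure D4:**
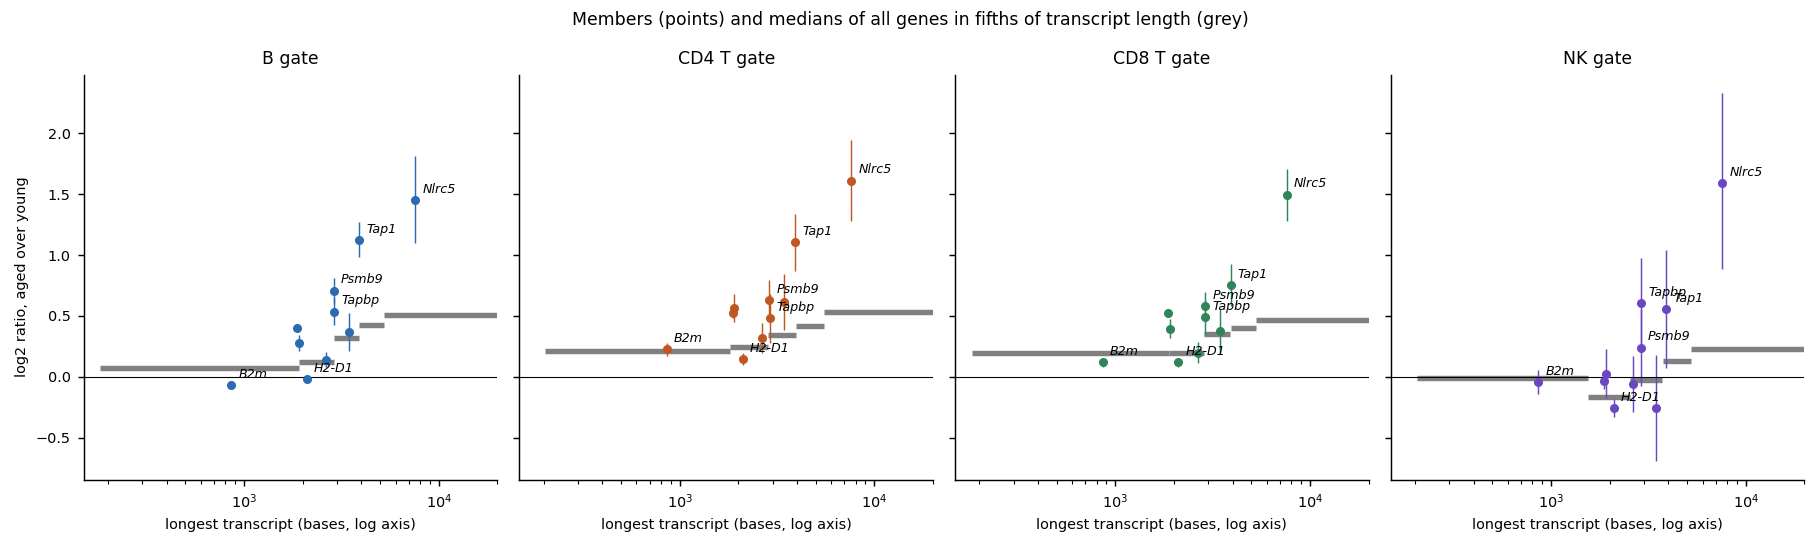
Log2 ratio, aged over young, of the members against transcript length, with grey bars for the median of all genes in quintiles of the longest annotated transcript length, for B, CD4 T, CD8 T and NK cells. In B and T cells the medians climb from the shortest to the longest quintile, and Nlrc5, in the longest, lies above the median there.

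The ratio of all genes also moved with transcript length. From the shortest to the longest quintile of genes by longest annotated transcript, the median log2 ratio was 0.07, 0.12, 0.32, 0.43 and 0.51 in B cells, and the share of genes 1.5-fold higher went from 8.81% to 41.4%. In CD4 T cells the medians went from 0.21 to 0.53 and in CD8 T cells from 0.20 to 0.47. Nlrc5, with 7578 bases, was in the longest quintile, Tap1, with 3911 bases, in the fourth in B and CD8 T cells, and B2m, with 860 bases, in the shortest. These lengths are of the longest transcript of any kind. The longest protein-coding transcript has 2953 bases in Tap1 and 1352 in Psmb9, so the quintile of these 2 members depends on that choice. By the lengths used, the order of the members by ratio followed their length in part, and the part of length in the ratios was not tested. Ribosomal protein genes, which are short, took 39.4%, 30.9% and 31.2% of the UMIs of CD4 T cells and 31.7%, 29.0% and 28.7% of those of B cells.

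The second comparison is aged-GA against aged blood. Of 40 ratios none was 1.5-fold higher, 1 was 1.5-fold lower, 38 lay within and 1, again Nlrc5 in NK cells, had too few UMIs. In B cells 0 of 10 members were higher and 0 lower, where 1.26% and 1.73% of all 9434 genes were. In CD4 T cells 0 of 10 were higher and 0 lower, against 1.52% and 1.92% of 5464 genes. In CD8 T cells 0 of 10 were higher and 1 lower, against 1.2% and 3.07% of 7595 genes, and in NK cells 0 of 9 were higher and 0 lower, against 3.25% and 2.06% of 2433 genes. The medians over the members were -0.09, -0.03, -0.13 and 0.14, beside -0.05, -0.03, -0.07 and 0.03 over all genes.

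The ratio past the limit was that of Nlrc5 in CD8 T cells, at -0.62 (-0.82 to -0.42), from 86.5 to 56.2 CPM. Nlrc5 was also lower in B cells, at -0.36 (-0.56 to -0.15), and in CD4 T cells, at -0.49 (-0.80 to -0.18). In NK cells it was at -0.80 (-1.47 to -0.15), from 57 aged and 32 aged-GA UMIs, under the minimum for a call. Of all genes 8.52%, 3.81%, 2.5% and 0.534% had a lower ratio in B, CD4 T, CD8 T and NK cells. Nlrc5 in aged-GA cells lay between its young and aged levels in each of these gates. The mitochondrial share of UMIs lay between as well, at 5.58%, 3.67% and 4.94% in young, aged and aged-GA B cells and at 5.10%, 3.12% and 4.4% in CD8 T cells, and its part in the result was not tested. Within memory CD8 T cells the log2 ratio was -0.80 and within naive CD8 T cells -0.44. The call in CD8 T cells did not hold after the median of all genes was taken off, at -0.55.

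Psmb9 in CD8 T cells was at -0.40 (-0.52 to -0.28), from 219 to 166 CPM, and between -0.17 and -0.14 in B, CD4 T and NK cells. B2m was lower by a small and similar amount in all 4 gates, at -0.14 (-0.17 to -0.12), -0.17 (-0.23 to -0.11), -0.19 (-0.23 to -0.15) and -0.15 (-0.26 to -0.04). In monocytes and neutrophils B2m was at 0.14 (0.08 to 0.20) and 0.11 (0.01 to 0.22), but within nonclassical and within classical monocytes it was at -0.02 and 0.12, with intervals across 0. The median of all genes was 0.07 in monocytes and 0.12 in neutrophils, so B2m in neutrophils moved like genes at large. H2-K1 was at -0.05, -0.04, -0.10 and 0.09 in B, CD4 T, CD8 T and NK cells. In neutrophils H2-K1 was at 0.23 (0.12 to 0.33), and part of that value is shared by genes at large. H2-D1 in NK cells was at 0.26 (0.18 to 0.34), from 3297 to 3952 CPM, beside 3935 CPM in the young library. With clusters in place of gates that ratio was 0.07, below the interval. Psmb8 lay between 0.04 and 0.14 in the 4 gates, but at -0.06 within naive CD4 T and -0.02 within memory CD8 T cells. Since both comparisons use the aged library, a value that was high in that library alone would give opposite signs in them.

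**Figure D5:**
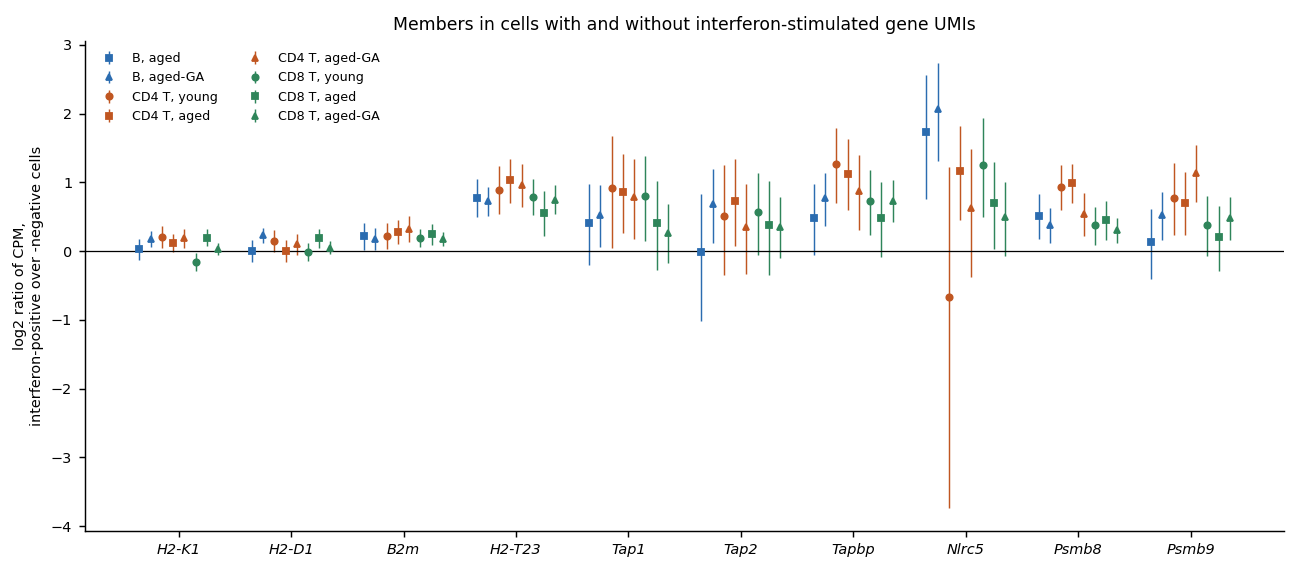
Log2 ratio of each member between interferon-positive and interferon-negative cells of the same gate and library, with 95% counting intervals, for 8 combinations of gate and library. H2-T23, Psmb8 and B2m lie above 0 at all 8 points with each interval above 0. Tap1, Tapbp and Psmb9 also lie above 0 at all 8 points, with some intervals across 0. H2-K1 and H2-D1 lie below B2m except in aged-GA B cells.

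Within each library, cells with an interferon response were compared with cells that had no UMI of the genes that define it. Cells with UMIs of at least 3 of 9 interferon genes, none of them a member, were 0.672% (0.376 to 1.11), 0.863% (0.595 to 1.21) and 1.03% (0.769 to 1.35) of B cells, 2.39% (1.54 to 3.54), 5.43% (3.61 to 7.81) and 4.04% (2.63 to 5.90) of CD4 T cells and 1.99% (1.41 to 2.72), 3.79% (2.54 to 5.44) and 4.35% (3.31 to 5.61) of CD8 T cells in young, aged and aged-GA libraries. Young B cells, with 15 such cells, were left out, which left 8 combinations of gate and library.

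H2-T23 was higher in interferon-positive cells at every point. It went from 452 to 772 CPM in aged B cells and from 364 to 742 CPM in aged CD4 T cells, and its log2 ratio lay between 0.56 and 1.03 at the 8 points, each interval above 0. Psmb8 lay between 0.30 and 0.99 and B2m between 0.17 and 0.33, also with each interval above 0. Tap1 lay between 0.27 and 0.91 and Tapbp between 0.48 and 1.27, with some intervals across 0. Psmb9 lay between 0.13 and 1.14 and Tap2 between -0.02 and 0.73, also with some intervals across 0. H2-K1 lay between -0.16 and 0.21 and H2-D1 between -0.01 and 0.23. In aged-GA B cells H2-K1 was at 0.17 (0.06 to 0.29) and H2-D1 at 0.23 (0.12 to 0.34), beside B2m at 0.17 (0.01 to 0.33). At the other points the classical heavy chains differed less than B2m. Nlrc5 was at 1.73 (0.76 to 2.56) and 2.07 (1.32 to 2.73) in aged and aged-GA B cells, from 12 and 19 UMIs in positive cells. In T cells Nlrc5 lay between -0.67 and 1.26. The lowest of these values, in young CD4 T cells, came from 2 UMIs in positive cells, with an interval of -3.74 to 1.23. At the other T cell points Nlrc5 lay between 0.49 and 1.26, with some intervals across 0. Over all genes the median lay between -0.14 and 0.00, and 5.77% to 12.2% of genes were 1.5-fold higher in positive cells. Positive cells were deeper than negative cells, with a median of 3648 against 3018 UMIs in aged B cells, and were picked by detection, which depth favours.

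In interferon-negative cells alone, aged over young, Nlrc5 was at 1.61, 1.71 and 1.47 in B, CD4 T and CD8 T cells, Tap1 at 1.19, 1.11 and 0.79 and Psmb9 at 0.72, 0.57 and 0.57. Each of these ratios but that of Psmb9 in CD4 T cells stayed on the side of 1.5-fold where it lay over all cells, and 7 of the 40 ratios over the 4 gates were past that limit. This setting was chosen after the values had been seen. Negative cells were most of the B, CD4 T and CD8 T gates, with 1892 of 2233 young and 3215 of 3825 aged B cells. Ratios near those over all cells were thus partly fixed in advance. Aged negative B cells had a median of 3018 UMIs. At that depth, having no UMI of the defining genes does not show that a response was absent. The part of interferon in these ratios was not tested.

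Other genes of the pathway were read from lists. Of the interferon-stimulated genes, 4 of 10 measured in B cells, 4 of 7 in CD4 T cells and 4 of 10 in CD8 T cells were at least 1.5-fold higher in the aged library and 0 lower. Isg15, a ubiquitin-like protein, was at 0.64, 1.46 and 1.01 and Gbp2, a guanylate-binding protein, at 0.68, 1.76 and 0.83 in the same order. Igtp was past the limit in B and CD4 T cells, at 1.19 and 0.62, Stat2 in B and CD8 T cells, at 1.03 and 1.22, and Xaf1 in CD4 T and CD8 T cells, at 0.80 and 0.64. Of the regulators of class I, 4 of 10, 3 of 8 and 5 of 9 were higher and 1, 0 and 0 lower. Nfkb1, a subunit of NF-kappa B, was at 0.70, 1.02, 0.66 and 0.62 in B, CD4 T, CD8 T and NK cells. Creb1 was past the limit in B and CD8 T cells, at 0.70 and 0.63, and Rela in CD4 T and CD8 T cells, at 0.82 and 0.68. Irf1 was the regulator that was lower, in B cells, at -0.65 (-0.80 to -0.51).

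Other proteasome genes were 1 of 7, 4 of 7 and 2 of 7 higher in B, CD4 T and CD8 T cells. Psme3, an activator subunit, was at 0.76, 0.68 and 1.08, and Psmb5 at 0.72 and 0.70 in CD4 and CD8 T cells. Loading and trimming genes were 0 of 8, 2 of 8 and 0 of 8 higher. Of other class I molecules 3 of 9, 1 of 7 and 2 of 8 were higher and 1 was lower in each gate. H2-Q6 went from 61.1 to 256 CPM in CD4 T cells, a log2 ratio of 2.07 (1.86 to 2.27), and was at 0.82 and 1.21 in B and CD8 T cells, although 83 of 426 windows of its last bases (19.5%) also occur in other genes. Fcgrt, the neonatal Fc receptor, was past the limit in B and CD8 T cells, at 0.59 and 1.56, and H2-Q10 was lower in B and CD4 T cells, at -0.93 and -0.63. In NK cells 1 of 3 regulators, and none of the genes measured from the other 4 lists, was higher. These counts stand beside the 24.7%, 30.3%, 27.3% and 8.93% of all genes that were higher in B, CD4 T, CD8 T and NK cells, and no list was tested.

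In the aged-GA library, against the aged library, Isg15 was lower in B, CD4 T and CD8 T cells, at -0.68, -0.72 and -1.0, and H2-Q10 was higher in B and CD4 T cells, at 0.68 and 0.71. Of the other proteasome genes, 7 measured in B and T cells and 6 in NK cells, none was past 1.5-fold and none was above 0 in any of the 4 gates, with medians of -0.17, -0.16, -0.17 and -0.24 in B, CD4 T, CD8 T and NK cells beside medians of -0.05, -0.03, -0.07 and 0.03 over all genes. No loading gene and no regulator was past the limit. Of interferon-stimulated genes 1 of 12, 1 of 7 and 2 of 10 were lower in B, CD4 T and CD8 T cells, where 1.73%, 1.92% and 3.07% of all genes were. In CD8 T cells the second of these was Stat2, at -0.62, and Ifit3 was higher, at 0.69, both named after their values were seen. Of other class I molecules 1 was higher in each of these gates, where 1.26%, 1.52% and 1.2% of all genes were.

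The genes most like a member in pattern were found by Pearson correlation of log2(CPM + 1) over 25 combinations of gate and library, which share libraries and depth. H2-K1 was most like Psmb8 (0.990), Hnrnpa3 and Tpp2, a peptidase that trims long peptides. Tap1 was most like Rc3h2 (0.995), Hnrnpm and Usp7, B2m most like Esd, Slc25a5 and Mrfap1, Psmb9 most like Ccdc174, Ik and Ndufa8, and Nlrc5 most like Nup153, Fryl and Gm17018. The 3 erythroid points carry much of this, and over the 22 other points the leading genes were Aqr (0.952) for H2-K1, Rc3h2 (0.934) for Tap1, Piezo1 (0.903) for B2m, Smim20 (0.893) for Psmb9 and Gm17018 (0.887) for Nlrc5. Among the members, over those 22 points, H2-K1 and Psmb8 were the closest pair (0.907), followed by Tap2 and Nlrc5 (0.798), whereas H2-K1 and H2-D1 stood at 0.22 and B2m and H2-T23 at -0.42.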

How the data were processed

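The authors deposited UMI counts per gene and barcode for each of the 3 libraries (3′ chemistry, version 3), made with Cell Ranger without normalization; the headers name version 5.0.0, the methods another one, and the processing notes of the submitters name build mm10. Following the methods, cells were kept that had 200 genes or more, no more than 90% of the gene count of the richest cell in the library, and 7.5% mitochondrial UMIs or less. Gates came from 11 lists of markers; T cells were split by Cd4, Cd8a and Cd8b1 UMIs. UMIs were summed per gate and library, for gates of at least 20 cells, and scaled to CPM. Ratios had no pseudocount, an exact conditional binomial interval and a limit of 1.5-fold with at least 100 UMIs over both libraries. Levels had exact Poisson and shares exact Clopper-Pearson intervals, and the limit for a count of 0 is 3 counts. Cells with markers of several lineages were left out, and doublets called by Scrublet (6.16%, 4.65% and 5.32% of young, aged and aged-GA cells) were removed as an alternative. Clusters, by Leiden at resolution 1 without batch correction, held 99.3% to 100% of the cells of the lymphocyte gates in clusters of the same name. They were named from the same marker lists, with T cells split by the same rule, so this agreement was partly fixed in advance. In the other direction, the gates held 10983 of 13520 B, 2119 of 2462 CD4 T, 3953 of 4808 CD8 T and 744 of 1056 NK cluster cells.

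All 10 members are named; of the lists, genes past 1.5-fold in the same direction in at least 2 of the B, CD4 T, CD8 T and NK gates; and the 3 genes most like each of 5 members, among genes with at least 50 CPM. 1 list gene that this rule names is not reported here. Irf1 and the windows of H2-Q6 were added after their values were seen. Members and lists were chosen with earlier results of these data known. Ratios, calls and intervals were tested on simulated sums of B cells, aged over young. The other steps were not tested in this way. With 3 libraries the smallest two-sided exact paired p is 0.25, so no test was run. Python 3.11.15, numpy 2.4.6, pandas 2.3.3, scipy 1.17.1, scanpy 1.11.5, leidenalg 0.10.2 and scikit-learn 1.9.0 were used. Gene positions and transcripts came from the annotation of GRCm38 and promoters from RefSeq.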

Additional observations from a re-analysis of the deposited data

Results flagged for a closer look

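Some members had ratios on opposite sides of 0 in 2 gates of the same comparison, each with a counting interval that left out 0, and the difference between the gates was not tested in any of them. H2-D1, aged over young, had a log2 ratio of 0.15 in CD4 T and 0.12 in CD8 T cells and of -0.26 in NK cells, and relative to the median of all genes it was below 0 in all 3 gates. B2m, aged over young, had 0.23 in CD4 T and 0.12 in CD8 T cells and -0.07 in B cells, and was likewise below 0 in all 3 relative to that median. H2-K1, aged-GA over aged, had 0.09 in NK cells, -0.05 in B cells and -0.10 in CD8 T cells. With clusters in place of gates it had -0.01 in NK and 0.03 in B cells, and within naive CD8 T cells 0.02, so each of these directions turned in some setting.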

How the results depend on the processing

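With 1 library per group no setting has a test, and no replicate can be left out. No paired analysis was possible because each group has 1 library. Of the 40 ratios of members over gates, aged over young, the 10 past 1.5-fold higher became 5 when ratios were taken relative to the median of all genes; the other planned settings gave 7 to 12 (7 with the denominator without haemoglobin, mitochondrial, ribosomal protein and immunoglobulin genes, 8 with a pseudocount of 10 CPM), and none gave a ratio 1.5-fold lower. Cells with no UMI of the genes that define the interferon response, a setting chosen after seeing the data, gave 7. For aged-GA over aged, none was higher in any setting, and the 1 lower became 0 relative to the median, with that denominator and with the pseudocount, and 2 without a minimum of UMIs. All 124 values of called ratios kept their sign, as did 834 of 880 values of all ratios. Shares of cells with a UMI moved in 141 of 150 cases between thinned cells and all UMIs. Depth limits Nlrc5 in NK cells and monocytes.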
